A study of Mus musculus with 8 samples.

Results

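The comparison described here asks what RNA differed between Pax9+/- and Pax9+/+ palatal shelves at embryonic day 13.5, after a correction for where the libraries stand in the deposited table. It rests on 4 libraries, 2 from heterozygous and 2 from wild-type embryos, of 8 in all. The remaining 4 libraries, from Pax9-/- embryos and called null here, served the correction. All embryos carried the strain label C57BL/6 and the treatment label N.A., and each library came from the dissected shelves of an embryo lysed on its own. The labels give neither the kind of null allele nor the litter of an embryo, so the p-values measure only the spread between these embryos. The members of the comparison are 12907 autosomal genes of the 19083 in the table, namely those whose FPKM reached 1 in 2 or more libraries. FPKM is the number of fragments counted for a gene, scaled by its length and by the total of the library.

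The correction was needed because genotype and table position coincide. In column order the table holds null 1, wild type 1, null 2, wild type 2, null 3, heterozygote 1, null 4 and heterozygote 2. Wild types therefore stand in the first 4 columns and heterozygotes in the last 4, and the plain heterozygote-to-wild-type difference cannot be told apart from a difference between the column sets. Nulls stand in both sets. The corrected difference is the heterozygote minus wild-type difference on the log2(FPKM + 0.5) scale, minus the difference of null 3 and null 4 from null 1 and null 2. It assumes that the column sets differ by the same amount in null and control shelves, and it equals the null minus wild-type difference less the null minus heterozygote difference. The labels do not say what the column order or the numbers 56 and 44 in the titles stand for. Null 1, null 3, wild type 1 and heterozygote 1 carry 56, so the corrected difference could be taken within each title number.

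Pax9 is a paired-box transcription factor of the pharyngeal pouches, the limb and the craniofacial mesenchyme that comes from the neural crest. In mice that lack it the palatal shelves fail to grow and elevate properly and the palate stays cleft, and teeth stop at the bud stage. Mice with 1 intact copy of Pax9 are viable, whereas people with 1 intact copy often lack molar teeth, so the response to a single lost copy is of interest. In the dental and palatal mesenchyme Pax9 acts upstream of, or beside, Msx1, Bmp4 and Osr2, and it has been linked to secreted Wnt antagonists.

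The libraries held between 37069101 and 51210254 recovered reads, 38428642 to 38749441 in the heterozygotes and 38096874 to 45849675 in the wild types. Mesenchymal markers were abundant in every library, with Prrx1 at 68.9 to 87.3 FPKM and Twist1 at 101 to 149. On the first principal component, with 37.0% of the variance, the first 4 columns lay between −16.1 and −9.73 and the last 4 between 6.77 and 17.9. The second, with 20.1%, placed nulls at 4.93 to 11.7 and controls at −12.0 to −4.69. Xist, the RNA of the inactive X chromosome, was at 178.6 FPKM in null 4 and 109.7 in heterozygote 2 and at most 0.0327 elsewhere. The first 4 columns thus held no library with Xist RNA and the last 4 held 2, 1 on each side of the correction, and only autosomal genes were tested.

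Pax9 RNA itself had a negative corrected difference, heterozygote below wild type, that did not pass the adjusted threshold. Its FPKM was 35.8 and 27.2 in wild types 1 and 2 and 30.1 and 26.2 in heterozygotes 1 and 2. In the nulls it was 8.49 and 7.19 in the first 4 columns and 9.81 and 10.3 in the last 4. The heterozygote and wild-type values overlapped, every null lay below every control, and both nulls of the last columns lay above both nulls of the first. The corrected log2 difference was −0.50 (SE 0.19, 95% interval −0.94 to −0.05, unadjusted p = 0.0346, limma adjusted p = 1.0), a ratio of 0.71 with an interval from 0.52 to 0.968. It was −0.44 within title number 56 and −0.55 within 44. Without the correction it was −0.15 (unadjusted p = 0.417). The nulls of the last columns exceeded those of the first by 0.34, so most of the corrected value came from the null sets.

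Pax9 RNA was not absent in the nulls, and null shelves differed from wild type by a log2 difference of −1.93 (limma adjusted p = 0.00554) and from heterozygotes by −1.44 (limma adjusted p = 0.0367). Pax9 (ENSMUSG00000001497) lies on the plus strand of chromosome 12 from 56691767 to 56712822 (GRCm38). The labels do not give the deleted part of the gene, so a gene total is a limited check of the genotype. The corrected difference of Pax9 was −0.30 without wild type 1, −0.69 without wild type 2, and between these values without any other 1 library. It was −0.36 (unadjusted p = 0.207) without null 4 and heterozygote 2, the libraries with Xist RNA.

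**Figure D1:**
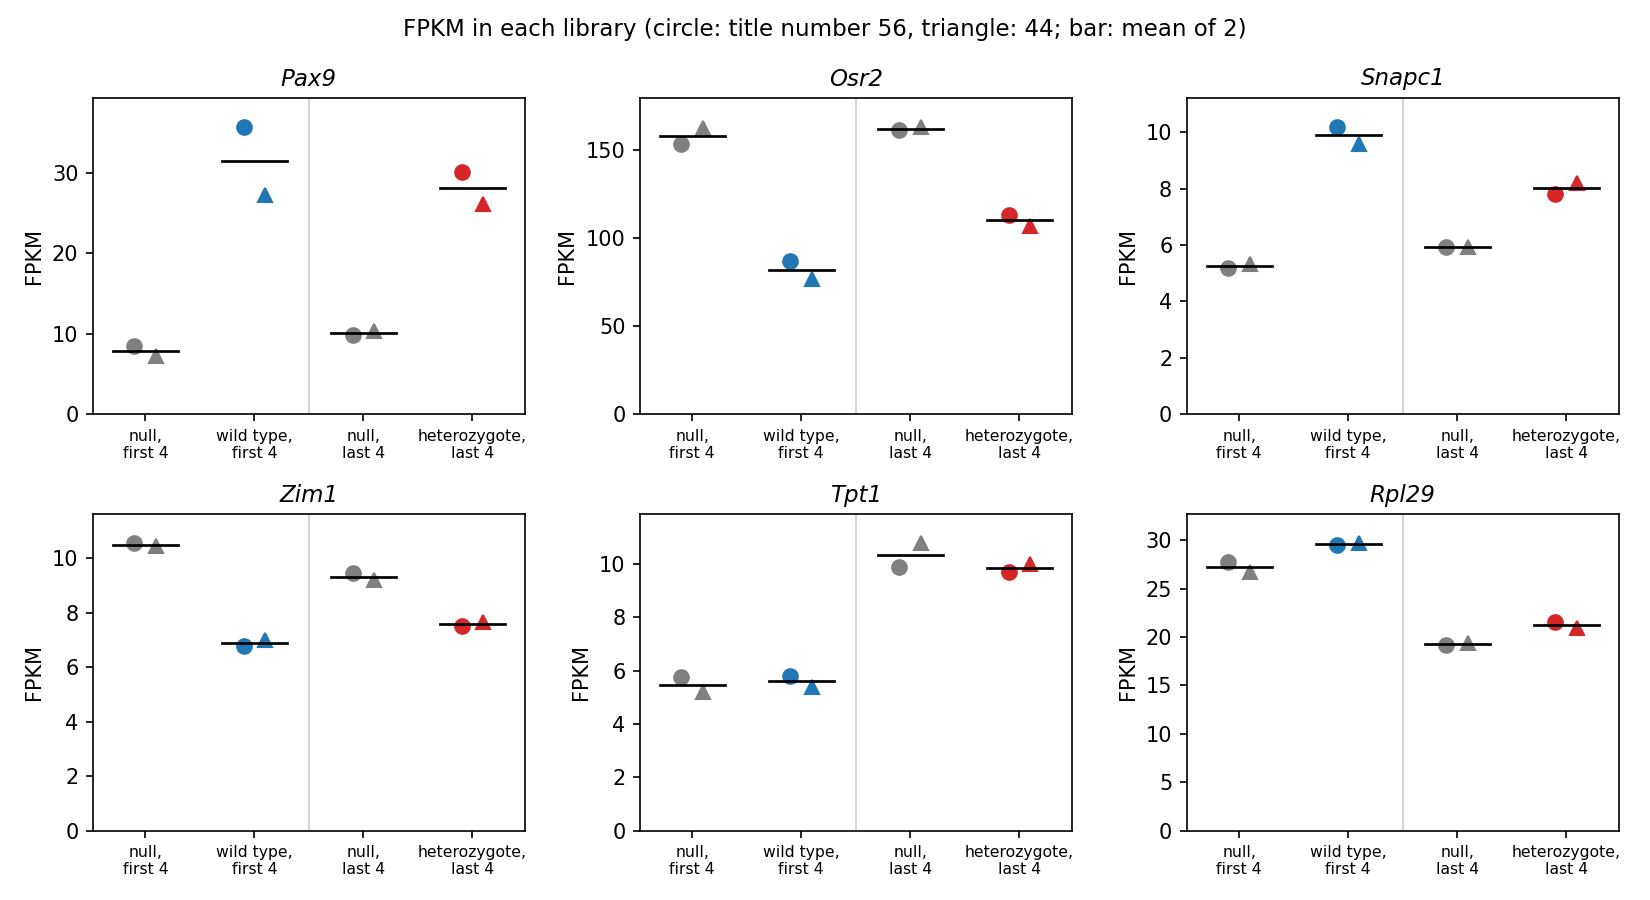
FPKM of 6 genes in each of the 8 libraries, grouped by genotype and column set, with circles for title number 56, triangles for 44 and a bar at the mean of 2 libraries. Pax9 and Snapc1 were lower and Osr2 and Zim1 higher in the nulls than in every control, and the heterozygotes of Osr2 (113.2 and 107.1) lay between the wild types (86.9 and 77.0) and the nulls.

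The uncorrected difference between heterozygotes and wild types ran along with the difference between nulls of the last and first columns. Tpt1, which encodes translationally controlled tumor protein, was at 5.82 and 5.39 FPKM in the wild types, with 9.69 and 10.01 in the heterozygotes. The nulls had 5.75 and 5.21 in the first columns and 9.88 and 10.8 in the last, so all libraries of the last columns were high whatever the genotype. Its uncorrected log2 difference was 0.76 and its corrected one −0.10 (95% interval −0.35 to 0.16). Rpl29, a ribosomal protein gene, went the other way, at 29.5 and 29.7 in the wild types, with 21.6 and 20.9 in the heterozygotes, and 27.7, 26.8, 19.2 and 19.4 in nulls 1 to 4. Its difference went from −0.47 to 0.02 (95% interval −0.13 to 0.17) with the correction. Tpt1 and Rpl29 were chosen after their values were seen, as the genes of smallest p between the null sets.

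Across the 12907 genes the heterozygote minus wild-type difference and the difference between the null sets, which share no library but share gene length, GC content and depth, had a Pearson r of 0.742 and a Spearman rho of 0.835. The median absolute log2 difference was 0.14 before correction, 0.144 between the null sets and 0.0514 after correction. The uncorrected difference within title number 56 and within 44 had a Pearson r of 0.521, and a Spearman rho of 0.68, and the corrected difference had −0.186 and −0.303. At a mean FPKM of at least 5 (8912 genes) the corrected values gave −0.138 and −0.396. Gene by gene, then, the corrected values of the title numbers tended to opposite sides. Each correlation is a description across genes, which are not independent replicates.

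**Figure D2:**
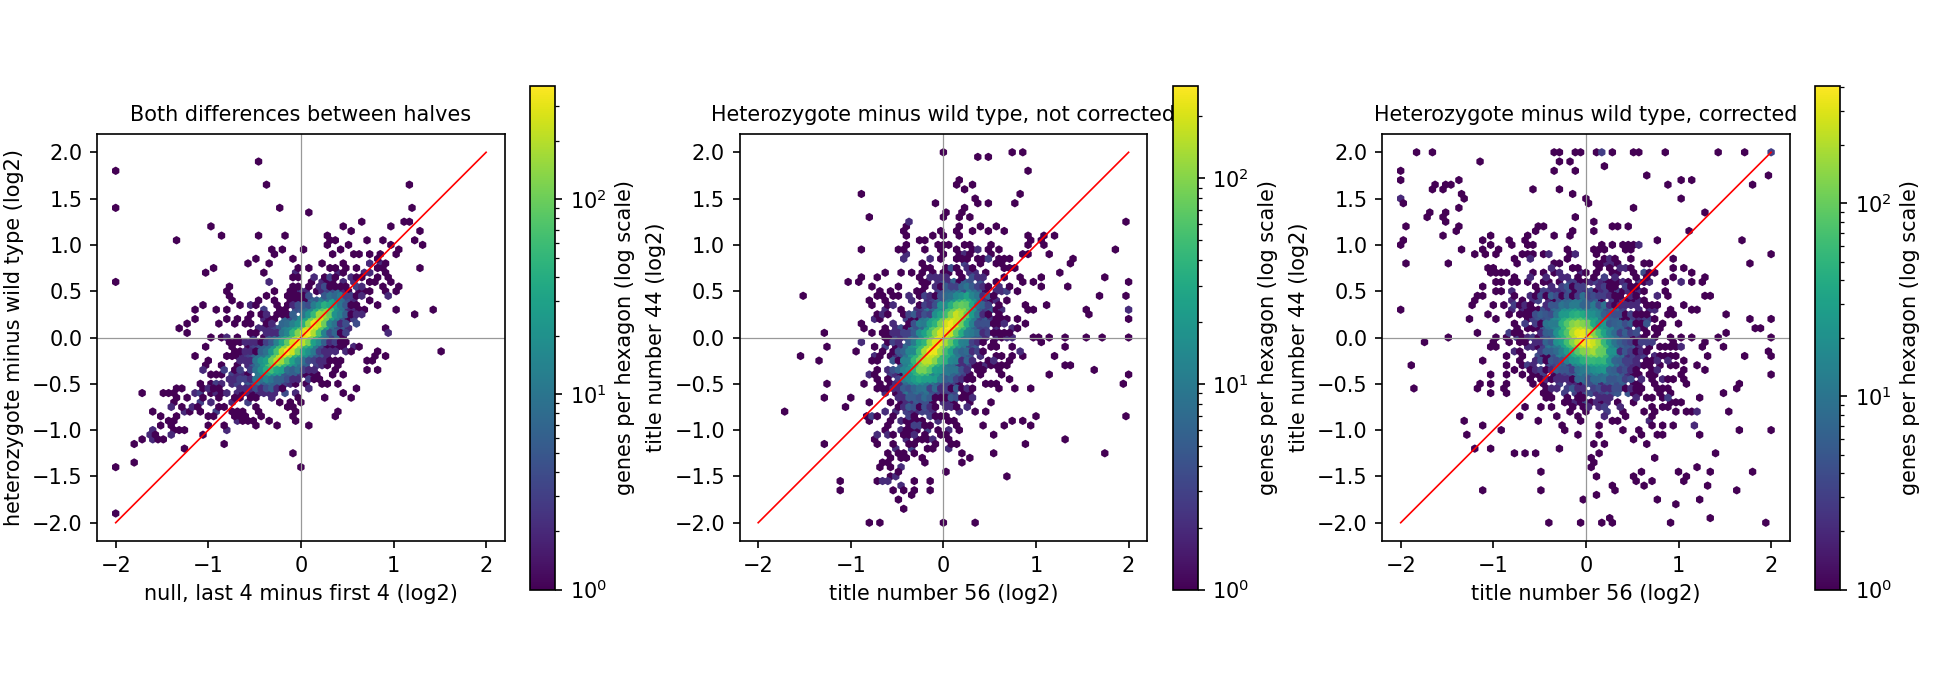
Log2 differences of the 12907 tested genes, with values beyond 2 in either direction drawn at the edge. The heterozygote minus wild-type difference lies along that of null 3 and null 4 from null 1 and null 2 (Pearson r 0.742), and the corrected difference within title number 56 shows no such line against that within 44 (Pearson r −0.186).

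No gene passed the threshold of a limma adjusted p of 0.05 in the corrected comparison, 0 of 12907 or 0%, and limma with voom weights on recovered reads called 0 as well. At an unadjusted p under 0.05 there were 117 genes, or 0.906%, of which 54 (0.418%) were higher and 63 (0.488%) lower in the heterozygotes. With voom there were 56. Evenly spread p-values, with no difference in any gene, would give a fraction of 0.05, and these counts fall short of it. A small unadjusted p alone therefore does not set a gene apart here. The uncorrected comparison also called 0 genes (lowest limma adjusted p = 0.374), with 1508 or 11.7% at an unadjusted p under 0.05. For size, the null sets differed from each other in 756 genes (5.86%), 338 (2.62%) of them higher and 418 (3.24%) lower in the last columns, a count near its threshold that fell to between 0 and 24 with any 1 library left out. Null shelves differed from wild type in 22 genes (0.17%) and from heterozygotes in 8 (0.062%), always by limma with the same number of libraries per side.

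The precision of the corrected comparison is set by 4 pairs of libraries and 4 residual degrees of freedom. The median 95% interval reached 0.27 on the log2 scale to either side, a ratio of 1.21. The absolute corrected difference was at most 0.189 in 9 of every 10 genes, against 0.318 before correction. A corrected log2 difference of 1 or more in size occurred in 49 genes. Corrected differences were above 0 in 5577 genes and below 0 in 7330, with a median of −0.01. For a single gene, the exact permutation test of 2 against 2 libraries cannot go below a two-sided p of 0.33.

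Among the 117 genes, short and non-coding transcripts were frequent. Small RNA genes (snoRNA, scaRNA, miRNA, snRNA, rRNA, ribozyme and other short RNA genes) gave 29 of 374 tested, or 7.75%, pseudogenes 16 of 333, or 4.8%, and protein-coding genes 64 of 11814, or 0.542%. Libraries were made after oligo(dT) selection, which is not meant to keep short RNAs without a poly(A) tail. Some of these genes, such as Snora24 and Gm22643, lie wholly within exons of longer ones. Others, such as Snord17 and Snord49b, overlap no exon of another gene. Of the 10 genes of smallest p in each direction, 4 of those higher and 2 of those lower in the heterozygotes encode proteins. None of these 20 passed the adjusted threshold.

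Osr2 was the most abundant of the 10 genes of smallest p with a positive corrected difference, and it did not pass the adjusted threshold. It encodes an odd-skipped zinc-finger factor of the palatal and dental mesenchyme that is needed for palate growth and restricts tooth formation to a single row. Its FPKM was 86.9 and 77.0 in the wild types, with 113.2 and 107.1 in the heterozygotes, 153.7 and 162.7 in null 1 and null 2, and 161.2 and 163.3 in null 3 and null 4. The groups did not overlap, the heterozygotes stood between wild type and null, and the null sets were close to each other. The corrected log2 difference was 0.39 (SE 0.09, 95% interval 0.17 to 0.61, unadjusted p = 0.00381, limma adjusted p = 1.0), a ratio of 1.31, with 0.31 in title number 56 and 0.47 in 44. Before correction it was 0.43 (unadjusted p = 0.000305). Osr2 (ENSMUSG00000022330) lies on the plus strand of chromosome 15 from 35296098 to 35303305.

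Null shelves exceeded wild type in Osr2 by a log2 difference of 0.95 (limma adjusted p = 0.00554) and heterozygotes by 0.56 (limma adjusted p = 0.0683). Leaving out any 1 library kept the corrected difference between 0.30 and 0.48.

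Zim1, an imprinted zinc-finger gene expressed from the maternal copy, also had a positive corrected difference that did not pass. It was at 6.79 and 7.02 FPKM in the wild types, with 7.53 and 7.68 in the heterozygotes, 10.6 and 10.5 in the first nulls and 9.45 and 9.20 in the last. The heterozygotes again stood between the wild types and the nulls. The corrected difference was 0.29 (SE 0.08, 95% interval 0.11 to 0.48, unadjusted p = 0.00613, limma adjusted p = 1.0), at 0.29 and 0.30 in the title numbers. Before correction it was 0.13 (unadjusted p = 0.168), and the nulls of the last columns differed from those of the first by −0.16. Zim1 (ENSMUSG00000002266) lies on the minus strand of chromosome 7 from 6671269 to 6696450.

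Cbr2 and Mstn, both low in level, had positive corrected differences that came mostly from the nulls. Both reached an FPKM of 1 only in the first nulls. They thus passed the filter through the libraries that make their corrected values positive, and their p-values do not account for this. Cbr2, a carbonyl reductase, was at 0.82 and 0.711 in the wild types, with 0.776 and 0.744 in the heterozygotes, against 1.71 and 2.07 in the first nulls and 0.925 and 0.832 in the last. Its wild-type and heterozygote values overlapped, its uncorrected difference was −0.00, and the corrected one was 0.79 (95% interval 0.32 to 1.25, unadjusted p = 0.00467). Mstn, the secreted inhibitor of muscle growth, was at 0.244 and 0.479 in the wild types, with 0.327 and 0.707 in the heterozygotes, 1.67 and 1.67 in the first nulls, and 0.698 and 0.311 in the last. Its corrected difference was 1.37 (95% interval 0.48 to 2.25, unadjusted p = 0.00778) and its uncorrected one 0.23, beside −1.14 between the null sets.

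Snapc1 was the protein-coding gene of smallest p among those with a negative corrected difference, which again did not pass. It encodes a subunit of the complex that starts transcription of small nuclear RNA genes. Its FPKM was 10.2 and 9.59 in the wild types, with 7.82 and 8.21 in the heterozygotes, 5.20 and 5.31 in the first nulls, and 5.92 and 5.94 in the last. Every heterozygote was below every wild type and above every null. The corrected log2 difference was −0.45 (SE 0.09, 95% interval −0.65 to −0.24, unadjusted p = 0.00123, limma adjusted p = 1.0), a ratio of 0.734, with −0.53 in title number 56 and −0.36 in 44. Before correction it was −0.29 (unadjusted p = 0.0114). The null to wild-type difference was −0.85 (limma adjusted p = 0.00554) and the null to heterozygote difference −0.41 (limma adjusted p = 0.158). Snapc1 (ENSMUSG00000021113) lies on the plus strand of chromosome 12 from 73964481 to 73988966, on the chromosome of Pax9 but beyond the 2 Mb around it.

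Mnd1, a meiotic recombination factor, was at 3.96 and 4.08 in the wild types, with 3.60 and 3.98 in the heterozygotes, which overlapped. It was 3.04 and 2.96 in the first nulls and 3.97 and 4.16 in the last. The corrected difference of −0.46 (95% interval −0.73 to −0.19, unadjusted p = 0.00445) thus joined an uncorrected difference of −0.08 to one of 0.38 between the null sets, and it did not pass.

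Most of the other named genes were short non-coding RNAs with a few FPKM. In genes this short, a few FPKM stand for few reads. Snord49b, a box C/D snoRNA, was at 5.74 and 4.73 FPKM in the wild types, with 1.43 and 2.53 in the heterozygotes, 4.55 and 4.03 in the first nulls, and 3.25 and 4.86 in the last, with a corrected difference of −1.15. Snora24, an H/ACA snoRNA of the host gene Snhg8, was at 9.71 and 7.66 in the wild types, with 5.15 and 5.39 in the heterozygotes, and 9.00 to 9.74 in the nulls, with −0.62 (unadjusted p = 0.00346). It lies wholly within exons of Snhg8, so its reads cannot be separated from its host's. In Snord49b and Snora24 the heterozygotes stood below wild types and nulls alike. Gm25555, an rRNA gene, had −1.13 (unadjusted p = 0.000731) of another make. It was at 0.784 and 0.708 in the wild types, 0.928 and 1.17 in the heterozygotes, 0.553 and 0.713 in the first nulls, and 2.46 and 2.67 in the last. Its heterozygotes were above both wild types, with an uncorrected difference of 0.31, and the negative corrected value came from the difference of 1.44 between the null sets.

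Among the 10 genes of smallest p with a positive corrected difference, Gm22574 had the largest, 1.63 (unadjusted p = 0.00119). It was at 0.363 and 0.873 FPKM in the wild types, with 2.58 and 2.16 in the heterozygotes, with nulls from 2.27 to 3.41, so the wild types alone were low. The gene spans only positions 86044989 to 86045048 of chromosome 13, so these FPKM values stand for few reads. Gm25357, a snoRNA gene, had 1.31, and its heterozygotes (3.94 and 4.33) were above both wild types (1.21 and 2.18) and every null.

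For most of the other named genes the corrected value came mainly from the null sets. Snord17 had a corrected difference of 1.44 and an uncorrected one of 0.28. Gm22643, a miRNA gene that lies wholly within Maml2 on the same strand and whose reads therefore cannot be separated from its host's, had 0.88 and 0.01. Mir1893, a miRNA gene that likewise lies wholly within Epc1, had 0.57 and, with the opposite sign, −0.13. In each of these the last nulls were below the first.

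Processed pseudogenes, which can share reads with their parent genes, were also among the named genes. Ndufs6b had a corrected difference of 0.54 and an uncorrected one of 0.14, Gm12941 −0.95 and −0.23, and Rpl19-ps11, a pseudogene of a ribosomal protein gene, −0.45 and 0.03. Gm11944, a processed transcript, had −0.36 and, with the opposite sign, 0.10. Gm23134, a miRNA gene that lies wholly within Nnat exons on the other strand, had −0.72 and −0.30. The libraries do not keep strand, so its reads cannot be separated from those of Nnat. Gm25948, another miRNA gene, had −0.35 and −0.29. All missed the adjusted threshold.

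**Figure D3:**
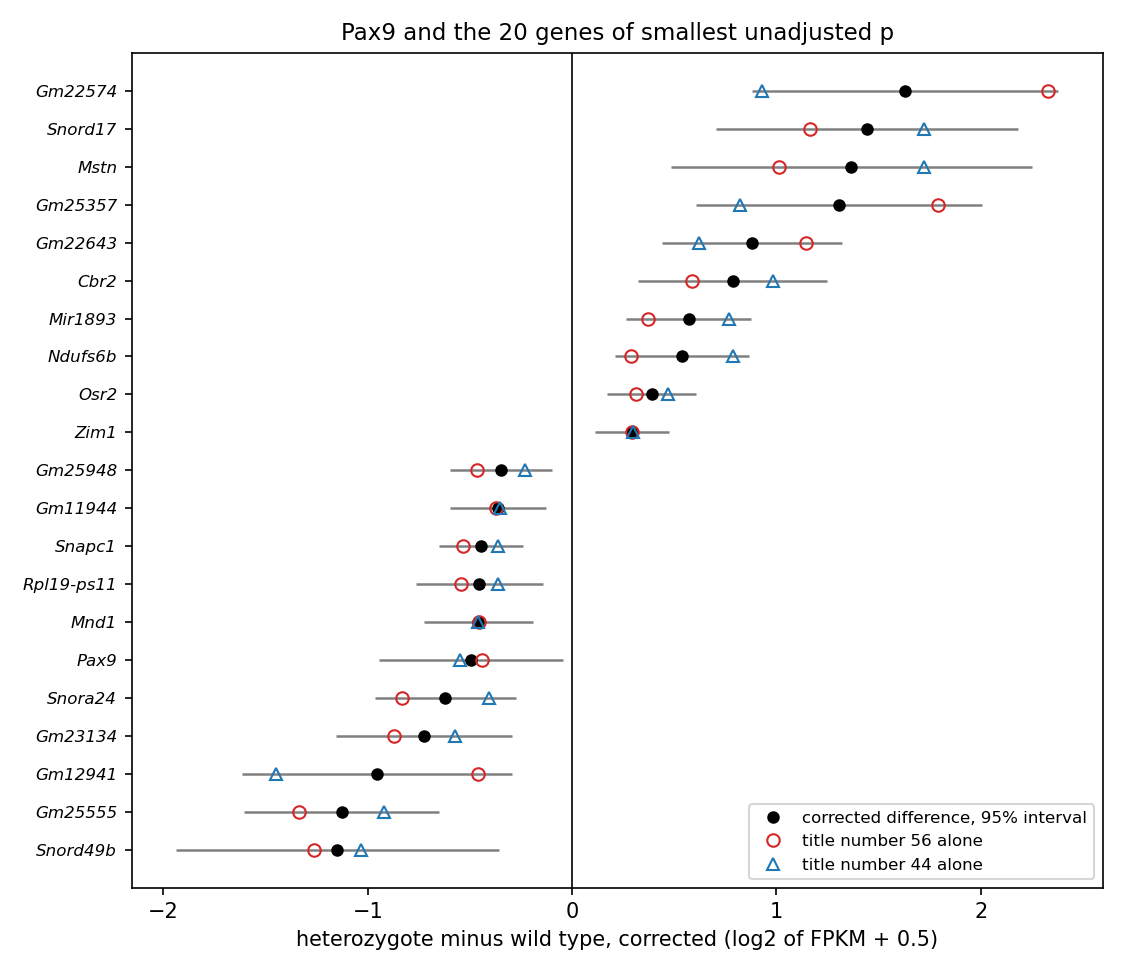
Corrected log2 difference between heterozygotes and wild types, with its 95% interval from limma, for Pax9 and the 10 genes of smallest unadjusted p in each direction. All intervals exclude 0 without adjustment, and no gene passed after it. For the genes other than Pax9, an interval that excludes 0 follows from their choice by small p.

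Genes that differed in the nulls were set beside the corrected values, since the heterozygote has 1 copy of the gene that the null lacks. This list, the 81 genes (0.628%) called by limma between the nulls and the mean of wild type and heterozygote, was chosen after values were seen. It uses the same libraries as the corrected difference, so the values stand side by side without a test. The 41 genes (0.318%) higher in null had a median null minus wild-type difference of 0.65, a null minus heterozygote difference of 0.49 and a corrected difference of 0.12. The 40 genes (0.31%) lower in null had medians of −0.62, −0.46 and −0.08, which were −0.61, −0.46 and −0.08 in the 39 genes other than Pax9. Over all 12907 genes the corrected median was −0.01. The median absolute null minus wild-type difference over all genes, 0.0675, was also larger than the null minus heterozygote one, 0.0617.

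The 10 genes of smallest p between nulls and controls were not alike in the heterozygotes. Ccdc3, a secreted coiled-coil protein, had log2 differences of 0.94 from wild type and 0.97 from heterozygote to null, and a corrected difference of −0.03. Mpped2, a metallophosphoesterase, was at 36.7 and 35.2 in the wild types, with 35.8 and 35.8 in the heterozygotes, against 25.2 to 26.6 in the nulls. Its heterozygotes were within the range of the wild types, and its corrected difference was −0.01.

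Others of the 10 had a corrected difference on the side of the null, some with intervals that included 0. Penk, the enkephalin precursor, was at 76.0 and 74.5 in the wild types, with 81.3 and 75.8 in the heterozygotes, and 108.8 to 121.6 in the nulls. The heterozygotes overlapped the wild types, every null was above both, and the corrected difference was 0.17 (unadjusted p = 0.0448). Intervals of the next 4 genes included 0. Dlx1as, an antisense RNA at Dlx1, had 0.12 (95% interval −0.28 to 0.52), which turned to −0.06 without wild type 1. Nptx1, a neuronal pentraxin, had 0.17 (95% interval −0.24 to 0.59) and 0.00 without wild type 2. Tfap2b, an AP-2 factor of the neural crest, had −0.33 (95% interval −0.78 to 0.11), with −0.53 without null 2 and −0.13 without null 1. Hs3st2, a heparan sulfate sulfotransferase, had −0.53 (95% interval −1.16 to 0.11), with −0.24 without null 3 and −0.98 by voom. Osr2, Snapc1 and Pax9, given above, made up the rest.

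**Figure D4:**
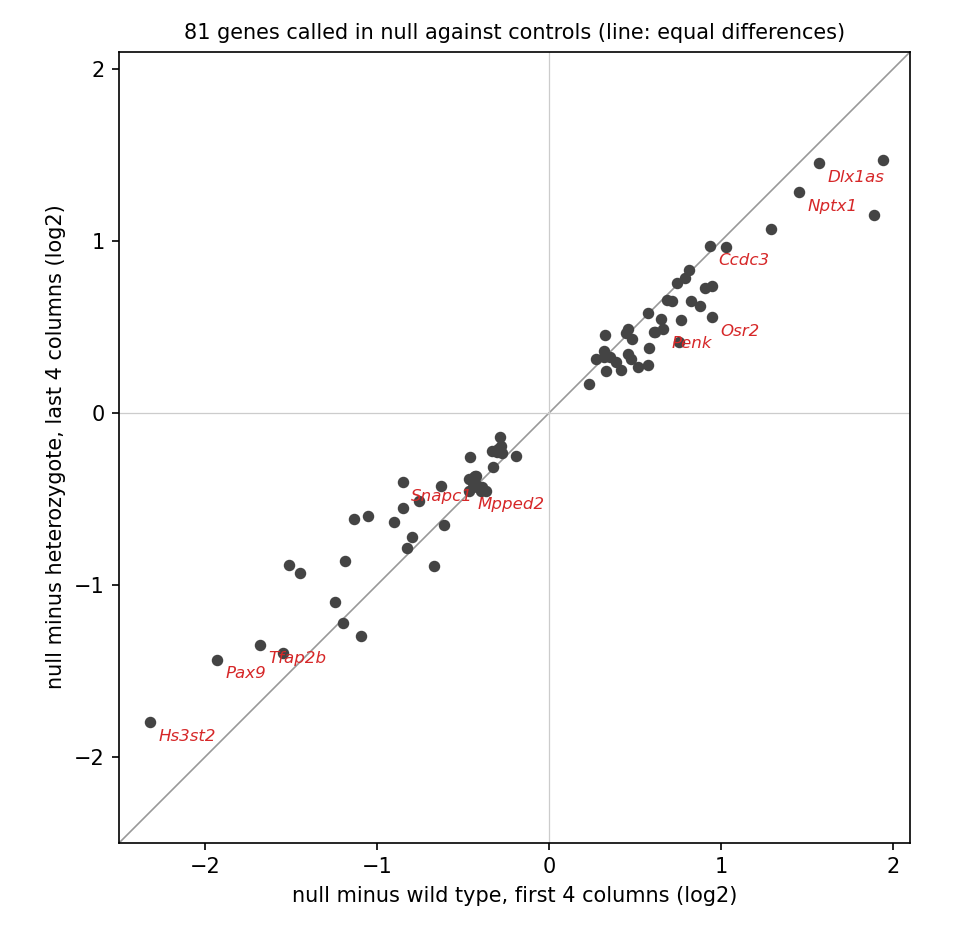
Null minus wild-type difference against null minus heterozygote difference, both log2, for the 81 genes called between nulls and controls, with the line of equality. Points of genes higher in null (median 0.65 against 0.49) and lower in null (−0.62 against −0.46) lie mostly on the side of the larger wild-type difference, and Ccdc3 and Mpped2 lie near the line.

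Of 9 Pax genes listed, 4 passed the filter on low values, with a median corrected difference of −0.36, 1 above 0 and 3 below. The median was −0.07 without null 2, −0.11 without wild type 2 and −0.51 without null 1. Pax1, the close paralog of Pax9, was added after its values were seen. It was at 1.31 and 1.44 FPKM in the wild types, with 0.883 and 0.636 in the heterozygotes, 0.296 and 0.417 in the first nulls and 0.312 and 0.324 in the last. The heterozygotes stood between wild type and null, and the corrected difference of −0.52 (95% interval −1.08 to 0.05, unadjusted p = 0.0671) did not pass. Pax1 reached an FPKM of 1 only in the wild types. It thus passed the filter through the group where it was high, and it counts in the list median. Pax3, a neural crest and muscle precursor factor, had −0.23 (95% interval −1.68 to 1.21).

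Genes near Pax9 were examined because a targeted allele carries its flanking chromosome along. Of the 21 tested genes within 2 Mb, 0 were called by limma and 1 had an unadjusted p under 0.05, against 0.906% of all tested genes, with a median of −0.00 and a range of −0.13 to 0.46. That gene was Gm15524, an antisense gene on the minus strand over the start of Pax9, from 56689918 to 56692964. It was at 2.77 and 2.66 FPKM in the wild types, with 3.34 and 3.31 in the heterozygotes, 3.85 and 4.67 in the first nulls, and 3.33 and 3.90 in the last. The wild types were lowest, and the corrected difference was 0.46 (95% interval 0.09 to 0.83, unadjusted p = 0.021). Its annotated exons overlap none of another gene, Pax9 included. Mbip, a MAP kinase binding protein gene, had −0.10 (95% interval −0.45 to 0.25) and Cox6c2, a pseudogene, −0.02.

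Palate pathways were described with lists of their members, and by limma 0 members of any list were called. Of the 39 tested palatal transcription factors, 2 had an unadjusted p under 0.05, both higher, where 0.418% of all tested genes were, namely Osr2 and Foxd2, a forkhead factor (0.20, unadjusted p = 0.0469). The list median was 0.02. Barx1, a homeobox factor of the maxillary mesenchyme, averaged 274.8 FPKM in wild type and 262.6 in heterozygote with a corrected difference of −0.03 (95% interval −0.33 to 0.27). Twist1, a neural crest basic helix-loop-helix factor, had 0.03 (95% interval −0.41 to 0.47). In the tooth germ list, with 8 genes and a median of 0.03, Msx1, the homeobox partner of Pax9 in dental mesenchyme, was at 102.4 and 75.0 in the wild types, with 74.2 and 61.1 in the heterozygotes. The nulls had 45.0 and 31.8 in the first columns and 29.2 and 27.9 in the last. Its corrected difference of 0.02 had an interval from −0.61 to 0.66, which leaves a change of either sign undetermined, and Lhx6, a LIM homeobox factor of the jaw, had 0.04.

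Wnt antagonists are secreted or receptor-bound proteins that keep Wnt ligands from signalling. Their list had 1 of 14 tested members at an unadjusted p under 0.05, against 0.906% of all tested genes, and a median of 0.01. That member was Shisa3, an antagonist of Wnt and FGF receptors in the endoplasmic reticulum. It was at 21.9 and 24.8 in the wild types, with 33.4 and 34.9 in the heterozygotes, 26.3 and 29.4 in the first nulls, and 32.5 and 34.0 in the last. The heterozygotes were above both wild types but overlapped the last nulls, and the corrected difference was 0.29 (unadjusted p = 0.03). Sfrp2, a secreted frizzled-related protein, had 0.06 (95% interval −0.23 to 0.35) and Frzb −0.04. The 16 tested Wnt/beta-catenin targets had a median of 0.00 with 0 members past the unadjusted threshold, among them Ccnd1 at −0.01 (95% interval −0.24 to 0.22) and the feedback inhibitor Apcdd1 at −0.06.

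The other signalling lists lay close to 0 and had 0 members past the unadjusted threshold. The BMP list (28 genes) had a median of −0.03, with the BMP-induced inhibitors of differentiation Id2 at −0.03 and Id3 at −0.04. In the Hedgehog list (16 genes, median −0.04) the signal transducer Smo had −0.04 (95% interval −0.20 to 0.12) and the target Foxf2 0.07. The FGF list (19 genes) had a median of 0.05, with the feedback phosphatase Dusp6 at 0.04 and the receptor Fgfr1 at −0.01. The TGF-beta list (19 genes) had −0.01, with the induced matrix protein Tgfbi at −0.01 and the signal mediator Smad4 at 0.05. The retinoic acid list (17 genes) had −0.01, with the binding protein Crabp1 at 0.10 and the synthesis enzyme Aldh1a2 at −0.15 (95% interval −0.79 to 0.49).

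Skeletal and matrix genes were likewise near 0, with 0 members past the unadjusted threshold. Cartilage genes (12, median 0.01) included Col2a1 at −0.06 (95% interval −0.26 to 0.14), the main cartilage collagen, and Col11a1 at −0.02. Osteogenic genes (9) had a median of 0.03, with Col1a2 at 0.03 and Sparc at −0.04. Matrix and hyaluronan genes (29) had a median of 0.03, with Col3a1 at 0.06 and fibronectin, Fn1, at −0.13 (95% interval −0.64 to 0.37). The uncorrected medians of these lists were −0.07, −0.16 and −0.14, and their medians between the null sets −0.08, −0.14 and −0.11.

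Growth and metabolism lists showed the same range of sizes. Of 28 cell cycle genes, 21 were below 0, with a median of −0.06 and 0 members past the unadjusted threshold, and the replication helicase subunit Mcm6 had −0.05 and the topoisomerase Top2a −0.12. Growth arrest genes (12, median −0.02) included Cdkn1c at 0.15 and Bax at −0.16, with intervals over 0. Of 18 hypoxia and glycolysis genes 17 were below 0, where 7330 of 12907 genes were, and the median was −0.10. Ldha, lactate dehydrogenase A, passed the unadjusted threshold. It was at 108.8 and 112.2 in the wild types, with 85.2 and 85.7 in the heterozygotes, 103.4 and 105.7 in the first nulls, and 89.5 and 94.6 in the last. The last columns were low in both genotypes, and the corrected difference was −0.19 (unadjusted p = 0.0223, limma adjusted p = 1.0). The glycolytic enzymes Pkm and Tpi1 had −0.04 and −0.10.

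Imprinted genes (21 tested) had a median of 0.05, with Zim1 past the unadjusted threshold. Of them 16 were above 0, where 5577 of all 12907 genes were. The growth regulators H19 and Igf2, which are neighbours, had 0.04 (95% interval −0.18 to 0.27) and 0.13 (95% interval −0.09 to 0.34). Quantile normalization turned H19 to −0.72. Immediate early and heat shock genes (8), which respond to handling, had a median of 0.00, with the chaperone Dnajb1 at 0.02 and Ier2 at −0.02.

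**Figure D5:**
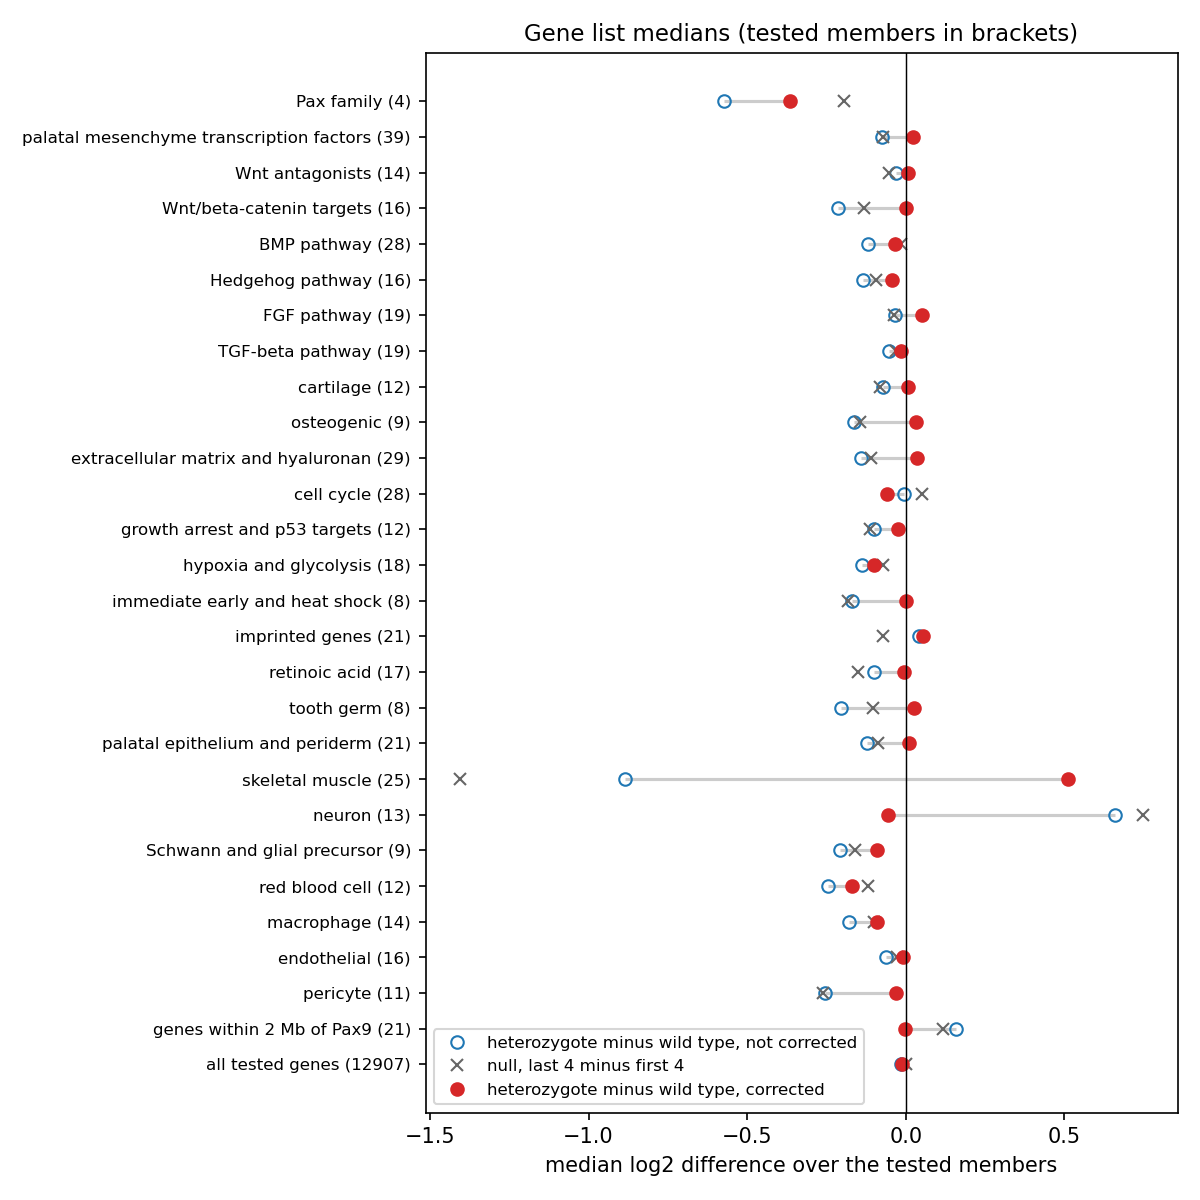
Median log2 difference of each gene list for the uncorrected and corrected heterozygote minus wild-type comparison and for the difference between the null sets, with all 12907 tested genes in the last row and a line at 0. Corrected medians lie within 0.17 of 0 except in skeletal muscle (0.51) and the Pax family (−0.36).

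Markers of other cell types in the dissection varied between libraries, and in bulk RNA fewer cells of a type and less RNA per cell cannot be told apart. Skeletal muscle genes had the largest list median. All 25 tested had a corrected difference above 0, where 5577 of all 12907 genes were. Their median was 0.51 and their range 0.18 to 0.81, and 0 had an unadjusted p under 0.05. Their summed FPKM was 167.2 and 353.6 in the wild types, with 112.3 and 115.9 in the heterozygotes, 514.2 and 537.7 in the first nulls, and 222.7 and 127.4 in the last. The heterozygotes were the lowest and the first nulls the highest, so the uncorrected median was −0.88 and the positive corrected value came from the larger difference of −1.41 between the null sets. Actc1, a sarcomeric actin, had 0.61 (95% interval −0.61 to 1.83) and Mylpf, a fast muscle myosin light chain, 0.52. The median was 0.04 without wild type 1, 0.21 without null 4 and 0.95 without wild type 2. Mstn, above, is a muscle gene, and the part of muscle content in its value was not tested.

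Red blood cell genes (12) were all below 0, where 7330 of all 12907 genes were, with a median of −0.17. Their summed FPKM was 1972 and 2479 in the wild types, with 1603 and 1654 in the heterozygotes, 1630 and 1724 in the first nulls, and 1537 and 1438 in the last. Both wild types were above every other library, 0 of the genes had an unadjusted p under 0.05, and the embryonic globin Hbb-y had −0.30 (95% interval −0.64 to 0.05) and Hba-x −0.16. Without 1 library the median was at most −0.03, with the weakest value without wild type 2.

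Neuron genes (13) had a median of −0.06, with Gap43 at −0.15 and Ncam1 at −0.06, and 0 had an unadjusted p under 0.05. The median was −1.29 without null 4 and 1.01 without heterozygote 1. Their summed FPKM was 83.8 and 137.3 in the wild types, with 91.6 and 202.6 in the heterozygotes, 82.6 and 83.7 in the first nulls, and 194.6 and 75.4 in the last. Null 3 and heterozygote 2 were the high libraries, each far above the other library of its pair.

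Other markers of the shelf lay closer to 0, and of these lists only the epithelium list had a member at an unadjusted p under 0.05. In the epithelium list (21 genes, median 0.01) Cldn3, a tight junction protein, had −0.39 (unadjusted p = 0.0457), and the basal keratin Krt14 and the adhesion molecule Epcam had 0.12 and −0.11. Endothelial genes (16) had a median of −0.01, with Cdh5 at −0.01 and Plvap at 0.02. Macrophage genes (14) had −0.09, with the complement component C1qb at −0.02 and Tyrobp at 0.10. Schwann and glial precursor genes (9) also had −0.09, with Sox10 at −0.23 (95% interval −1.05 to 0.59) and Erbb3 at 0.03. Pericyte genes (11) had −0.03, with Pdgfrb at −0.08 and Acta2 at 0.40 (95% interval −0.32 to 1.12).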

How the data were processed

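Libraries of poly(A)-selected RNA from palatal shelves were made with a kit that does not keep strand, per the labels' protocols. The authors deposited FPKM values for 19083 genes in 8 libraries. Per the submitters' processing notes, reads were aligned with Novoalign 2.08.03 to mm10, and DESeq2 is named without a role. For the counting program and the annotation, the sources used here give nothing. Of the table's sample columns, 0 belonged to other samples.

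Symbols, positions and gene types came from GENCODE M21 (GRCm38), which matched 18752 identifiers and missed 331. Of 13600 genes that passed the filter, 693 off the autosomes or without a position were dropped. FPKM steps gave whole reads for 100% of genes, within 0.03 of a read. Pairs of libraries of the same genotype and column set differed by a chi-square of 12.2 to 30.6 per degree of freedom, so no pair agreed within sampling noise.

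limma 3.58.1 in R 4.3.3 was fitted to log2(FPKM + 0.5) with a mean-variance trend, with 4 groups formed by genotype and column set, and p-values were two-sided and adjusted by Benjamini-Hochberg over 12907 genes. The uncorrected comparison came from a fit with 3 genotype groups. Fold changes on this scale understate those of low genes. The code was tested on simulated data. Figures were drawn with matplotlib 3.10.9.

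Named genes are Pax9, the 10 of smallest unadjusted p in each direction where fewer are called, the 2 most abundant tested members of each list, and tested genes within 0.5 Mb of Pax9. Other genes were named after their values were seen. Members and lists were chosen with earlier results of these data known. Alternatives covered pseudocount, filter, chromosomes, scaling, recovered reads with voom, GC, title number, trend and libraries left out.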

Additional observations from a re-analysis of the deposited data

Results flagged for a closer look

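Of 85 named genes examined in the 4 nulls, 3 had a library far from the other 3 by Dixon's criterion. Chance gives about 1 in 20 for 4 values of a single group, whereas these nulls come from both column sets. C1qb, a macrophage complement component, was at 14.3 FPKM in null 2 and 9.08 to 9.33 in the other nulls. Sox10, a Schwann cell and glial precursor factor, was at 17.4 in null 2 and 13.8 to 14.3 in the others. Hs3st2 was at 0.567 in null 3 and 0.213 to 0.232 in the others. Null 2 enters the corrected difference on the side of the first columns and null 3 on that of the last.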

How the results depend on the processing

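The corrected comparison called 0 genes under 23 of 23 alternatives by limma. At an unadjusted p under 0.05 it had 1508 genes with no correction and 55 to 296 under the other 22, of which 296 came without a filter, 55 at a mean FPKM of at least 5, 56 with voom and 202 without null 4 and heterozygote 2. The uncorrected comparison called 0 to 1 when 1 library was left out. Correlations of deviations between libraries of the same title number were mixed, at 0.379 between wild type and heterozygote and from −0.126 to 0.236 in the other pairs, so the title numbers were not taken as pairs. With title number as a block the corrected comparison had 0 calls and 204 genes at an unadjusted p under 0.05. The difference between the null sets (756 genes) depended on the setting, with 0 calls without a filter, without a trend, or without null 4 and heterozygote 2, 1401 at a mean FPKM of at least 5, 1404 with voom and 1395 in protein-coding genes alone. It had 2669 with the title-number block, 1 with GC trends removed, 0 with both, and 0 to 24 with 1 library left out. Null against wild type (22) had 11 without a filter, 49 with voom, 43 in protein-coding genes, 8 without null 4 and heterozygote 2, and 4 to 21 with 1 left out. Null against heterozygote (8) had 14 with voom, 0 without a filter, without a trend or without null 4 and heterozygote 2, and 0 to 7 with 1 left out. The cause was not tested. These counts are not all over the same genes. Without a filter more than 12907 genes were tested. At a mean FPKM of at least 5, or in the 11814 protein-coding genes alone, fewer were. A library left alone in its group was assumed to vary like the others. The corrected differences of Pax9 (−0.69 to −0.30), Osr2 (0.30 to 0.48), Snapc1 (−0.49 to −0.40) and Zim1 (0.26 to 0.32) kept their sign throughout. Osr2, Snapc1 and Zim1 were named for a small p in these same libraries. A kept sign, or close values in the title numbers, is therefore no separate support. Actc1 and Bax, whose intervals include 0, kept their sign as well. Another scaling moved the median of all genes by less than 0.1.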

Other observations

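Rmrp, Rn7sk and Rpph1, abundant RNAs made by RNA polymerase III, had corrected log2 differences of 4.20, 3.47 and 2.76 and none passed. Rmrp was at 130.4 FPKM in null 2 and 51.6 in heterozygote 1, against 2.28 to 5.61 in the other 6 libraries. Rn7sk was at 469.8 and 143.3 in these libraries and 21.8 to 33.7 in the others, and Rpph1 at 51.7 and 15.6 against 2.44 to 4.76. The same libraries, null 2 and heterozygote 1, were high for each. These genes were chosen after their values were seen.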
